A study of Mus musculus with 10 samples.

Results

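Periostin (Postn) and 9 other matricellular genes were followed in 10 RNA-seq libraries of mouse osteoblast precursors, 6 of them treated with β-ecdysterone. Among the 9 others were tenascin C (Tnc), tenascin N (Tnn), fibronectin (Fn1), Sparc, and thrombospondins 1 and 2 (Thbs1, Thbs2). The CCN genes Ctgf, Cyr61 and Wisp2 completed them. The genes were taken by name, 10 of the 29583 genes listed in the deposited table. Postn was chosen by its count in the library at 100 μM on day 10, where it had the highest count of any gene. Its value in that library is given as a description, and its tests come from fits without that library.

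β-Ecdysterone, a plant and insect steroid, was given to MC3T3-E1 subclone 14 cells, an established line from newborn C57BL/6 mouse calvaria, at the third passage. Cells received 0, 100, 150 or 200 μM and were collected on day 5 or day 10, with 1 library for each dose and day. The 2 libraries A-5 and B-4 were labelled untreated with no time given, and were kept apart from the libraries at 0 μM. The source name of the labels calls the cells bone marrow mesenchymal stem cells, while the titles name MC3T3-E1. Total counts ran from 27108562 to 58218009 per library.

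Matricellular proteins are secreted into the extracellular matrix, where they bind collagen, fibronectin, growth factors and integrins and adjust how cells adhere, migrate and respond to signals, more than they bear load. In bone, periostin marks the periosteum and sites of loading or repair, the tenascins accompany bone formation, and Sparc, also called osteonectin, binds collagen and calcium in mineralising matrix. Thrombospondins bind collagens and growth factors, and Ctgf and Cyr61 are known targets of the mechanosensitive YAP/TAZ and TEAD factors.

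By counts, the library at 100 μM on day 10 held 827131 counts of Postn, ahead of 707545 of mt-Co1, 526763 of Fn1, 360986 of Col1a2 and 225809 of Col1a1. By FPKM, a level scaled to gene length and library size, the order there was mt-Co1 at 14797.5 FPKM, Postn at 8714.9, mt-Cytb at 5919.2, mt-Co2 at 5690.7 and mt-Atp6 at 5218.1. Postn ranked second by counts in each of the other 5 treated libraries. At 0 μM it ranked 155 on day 5 and 90 on day 10. It ranked 664 in untreated A-5 and 26 in untreated B-4.

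The first comparison asked which matricellular genes differ between β-ecdysterone-treated cells and cells at 0 μM. The 3 doses on 2 days gave 6 treated libraries against 2 at 0 μM, so the doses serve as the replicates. The p-values therefore measure the spread between libraries, and whether these came from separate cultures is not stated. The protocol gives n = 3 for RNA extraction, and whether each library pools 3 extracts is not stated either. A gene was called when its log2 fold change lay beyond 1 and its adjusted p from edgeR's quasi-likelihood test, corrected by Benjamini-Hochberg over all genes tested, was under 0.05. All 10 members passed the filter on low counts. Of the 9 members other than Postn, 3 were upregulated (Tnc, Tnn and Sparc), beside 2254 of the 16794 genes tested (13.4%). Another 3 were downregulated (Thbs2, Ctgf and Wisp2), beside 1005 genes (5.98%). Fn1, Thbs1 and Cyr61 had adjusted p under 0.05 in edgeR and log2 fold changes inside the limit of 1. Postn, tested without the library at 100 μM on day 10, was upregulated, as were 2266 of the 17196 genes of that fit (13.2%). By level, 4 of the 9 members lay above both libraries at 0 μM in all 6 treated libraries, as did 4618 of 16794 genes (27.5%), and 5 lay below, as did 4237 genes (25.2%), so a lack of overlap was common among all genes. In bulk RNA, fewer cells of a type and less RNA per cell cannot be told apart.

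Postn, a secreted fasciclin-domain protein that binds integrins and collagen, stood at 625 CPM (counts scaled to library size with TMM factors) at 0 μM on day 5 and at 959.9 CPM at 0 μM on day 10. On day 5 it reached 18651 CPM at 100 μM, 15827 CPM at 150 μM and 16837 CPM at 200 μM. On day 10 it reached 32591 CPM at 100 μM, 36243 CPM at 150 μM and 26299.8 CPM at 200 μM. Every treated library lay above both libraries at 0 μM with no overlap, and the treated libraries of day 10 lay above those of day 5. Without the library at 100 μM on day 10, the treated mean was 22772 ± 8578 CPM (SD, n = 5). Postn was upregulated by a log2 fold change of 4.88 (SE 0.22, edgeR adjusted p = 4.7e-06), higher in 5 of 5 treated libraries. Leaving out 1 further library in turn gave log2 fold changes from 4.75 to 5.02.

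Postn took 0.0650% of all counts at 0 μM on day 5 (95% Wilson interval 0.0642 to 0.0657%) and 0.0970% at 0 μM on day 10 (0.0959 to 0.0981%). Its share on day 5 was 1.87% at 100 μM (1.860 to 1.870%), 1.65% at 150 μM (1.648 to 1.655%) and 1.72% at 200 μM (1.716 to 1.725%). On day 10 its share was 3.05% at 100 μM (3.045 to 3.058%), 3.31% at 150 μM (3.308 to 3.317%) and 2.55% at 200 μM (2.545 to 2.554%). The share was higher in each treated library than in both at 0 μM, and the intervals cover counting error only. The 10 members together took 1.30% of counts at 0 μM on day 5 and 1.43% at 0 μM on day 10. Their summed share was 3.17 to 3.84% in the treated libraries of day 5 and 4.88 to 5.80% in those of day 10, with Postn supplying 48.6 to 57.1% of the members' counts.

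**Figure D1:**
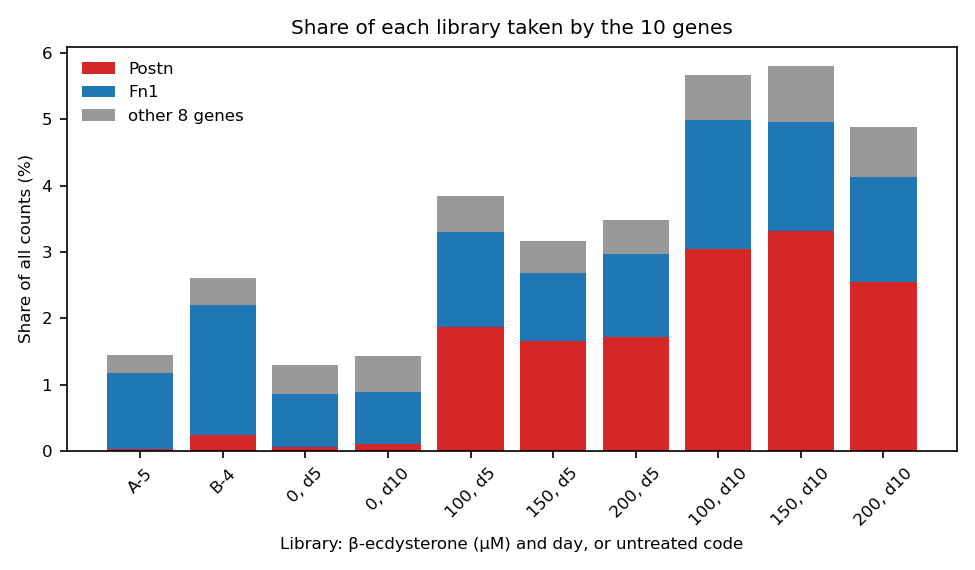
Share of each library's total counts (percent) taken by the matricellular members, by library. Postn took 0.0650 and 0.0970% at 0 μM and 1.65 to 3.31% in the 6 treated libraries.

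Tnc, a hexameric adhesion-modulating glycoprotein of developing and remodelling matrix, stood at 30.5 CPM at 0 μM on day 5 and 31.3 CPM on day 10. In treated cells Tnc stood on day 5 at 351 CPM at 100 μM, 674 CPM at 150 μM and 546 CPM at 200 μM. In treated cells Tnc stood on day 10 at 1013 CPM at 100 μM, 1424 CPM at 150 μM and 1217 CPM at 200 μM. All 6 treated libraries lay above both at 0 μM, and day 10 lay above day 5 without overlap. The treated mean was 871 ± 415 CPM (SD, n = 6), and Tnc was upregulated by a log2 fold change of 4.63 (SE 0.38, edgeR adjusted p = 1.8e-05).

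Tnn, the tenascin also called tenascin W and known from periosteum and bone, had the largest log2 fold change among the members. It stood at 4.01 CPM at 0 μM on day 5 and 5.31 CPM on day 10. In treated cells of day 5, Tnn was at 191 CPM at 100 μM, 212 CPM at 150 μM and 303 CPM at 200 μM. In treated cells of day 10, Tnn was at 719.8 CPM at 100 μM, 787 CPM at 150 μM and 444 CPM at 200 μM. Like Tnc, it separated 0 μM, day 5 and day 10 with no overlap. Tnn was upregulated by a log2 fold change of 6.36 (SE 0.41, edgeR adjusted p = 4.4e-06), from a mean of 4.66 CPM at 0 μM to 443 ± 257 CPM in treated cells (SD, n = 6).

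Sparc, the collagen- and calcium-binding protein of bone matrix, stood at 1217 CPM at 0 μM on day 5 and 1556 CPM on day 10. On day 5 it stood at 2831 CPM at 100 μM, 2184 CPM at 150 μM and 2568 CPM at 200 μM. On day 10 it stood at 3866 CPM at 100 μM, 5465 CPM at 150 μM and 4759 CPM at 200 μM. Its treated libraries lay above 0 μM and day 10 lay above day 5, again with no overlap, by smaller ratios than for Postn or the tenascins. Sparc was upregulated by a log2 fold change of 1.30 (SE 0.19, edgeR adjusted p = 0.000468), higher in 6 of 6 treated libraries. A test against a 2-fold limit gave an edgeR adjusted p of 0.135, within a range of 2.6e-13 to 0.212 over the 20 alternatives run for Sparc. The log2 difference was 0.80, and Sparc was not called, with A-5 and B-4 in place of the libraries at 0 μM.

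Fn1, the fibril-forming glycoprotein on which collagen and other matrix proteins assemble, was abundant without β-ecdysterone, at 7583 CPM at 0 μM on day 5 and 7856 CPM on day 10. Treated Fn1 levels on day 5 stood at 14316 CPM at 100 μM, 9945 CPM at 150 μM and 12213 CPM at 200 μM. Treated Fn1 levels on day 10 stood at 20756 CPM at 100 μM, 18007 CPM at 150 μM and 16298 CPM at 200 μM. The groups did not overlap, yet the log2 fold change of 0.93 (SE 0.19, edgeR adjusted p = 0.00348) was inside the limit of 1. Without the library at 0 μM on day 5 the value was 1.22, and without the library at 150 μM on day 5 it was 1.02, and Fn1 was called in both. Without the library at 0 μM on day 10 it was 0.66 (edgeR adjusted p = 0.0661, range over its 20 alternatives 5.0e-07 to 1).

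Of the thrombospondin genes, Thbs2 was downregulated and Thbs3, outside the members and named after its values were seen, was upregulated by a log2 fold change of 1.39 (SE 0.12, edgeR adjusted p = 1.8e-05), from 47.9 and 54.1 CPM at 0 μM to 135 ± 18.5 CPM in treated cells (SD, n = 6). Thbs2, which shapes collagen fibrils and limits vessel growth, stood at 1255 CPM at 0 μM on day 5 and 1673 CPM on day 10. In the 6 treated libraries it ranged from 544 to 683 CPM, with a mean of 616 ± 48.8 CPM (SD, n = 6), all below both libraries at 0 μM. Thbs2 was downregulated with a log2 fold change of −1.25 (SE 0.11, edgeR adjusted p = 3.4e-05). Thbs1, an activator of latent TGF-β, stood at 739.9 CPM at 0 μM on day 5 and 866 CPM on day 10. Its treated libraries lay from 325 CPM at 200 μM on day 10 to 559 CPM at 100 μM on day 5, below 0 μM without overlap. The Thbs1 log2 fold change of −0.86 (SE 0.16, edgeR adjusted p = 0.00222) was inside the limit of 1. It was −1.08 and called without the library at 0 μM on day 5, and −0.64 without that at 0 μM on day 10 (edgeR adjusted p = 0.0608, range over its 20 alternatives 7.9e-06 to 1). A 2-fold test left Thbs2 at an edgeR adjusted p of 0.0805, within a range of 2.7e-21 to 0.808 over its 20 alternatives. When A-5 and B-4 replaced the libraries at 0 μM, Thbs2 stood at −0.07 and was not called. Thbs1 then stood at 1.73, the opposite sign.

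Of the 3 CCN members, Wisp2 and Ctgf were downregulated and Cyr61 was not called. The CCN genes Nov at 0.11 and Wisp1 at 0.21 on the log2 scale, outside the members and named after their values were seen, were not called. Wisp2, a CCN protein that lacks the C-terminal domain of its relatives, stood at 235 CPM at 0 μM on day 5 and 254 CPM on day 10. On day 5 it stood at 100.3 CPM at 100 μM, 58.3 CPM at 150 μM and 75.8 CPM at 200 μM. On day 10 it stood at 77.3 CPM at 100 μM, 59.7 CPM at 150 μM and 57.9 CPM at 200 μM. Treated libraries lay well below both at 0 μM, while the days overlapped. Wisp2 was downregulated with a log2 fold change of −1.80 (SE 0.18, edgeR adjusted p = 4.8e-05). With A-5 and B-4 in place of the libraries at 0 μM, it was −0.09 and Wisp2 was not called.

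Ctgf, a fibrogenic CCN protein, stood at 57.2 CPM at 0 μM on day 5 and 68.9 CPM on day 10. With treatment, Ctgf on day 5 was at 28.9 CPM at 100 μM, 37.8 CPM at 150 μM and 38.8 CPM at 200 μM. With treatment, Ctgf on day 10 was at 18.0 CPM at 100 μM, 39.1 CPM at 150 μM and 14.3 CPM at 200 μM. All 6 treated libraries lay below 0 μM, with the widest relative spread of the 5 members that were lower. Ctgf was downregulated with a log2 fold change of −1.15 (SE 0.32, edgeR adjusted p = 0.0154). It was 2.34, the opposite sign, with A-5 and B-4 in place of the libraries at 0 μM. The call was lost without the library at 0 μM on day 10 (log2 fold change −0.72, edgeR adjusted p = 0.253) and without that at 200 μM on day 10 (−0.98), and the adjusted p ranged from 0.000708 to 0.8286 over its 20 alternatives.

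Cyr61, an angiogenic and adhesive CCN protein, stood at 731 CPM at 0 μM on day 5 and 855 CPM on day 10. Its treated libraries ran from 323 CPM at 200 μM on day 10 to 673 CPM at 100 μM on day 5, with a mean of 468 ± 123 CPM (SD, n = 6). These lay below 0 μM without overlap. The Cyr61 log2 fold change was −0.79 (SE 0.21, edgeR adjusted p = 0.0123), inside the limit of 1. It was 0.46, the opposite sign, with A-5 and B-4 in place of the libraries at 0 μM. It was −1.09 and called without the library at 0 μM on day 5, and −0.47 without that at 0 μM on day 10 (edgeR adjusted p = 0.239, range over its 20 alternatives 0.000748 to 1). The directions of all 10 members were the same with TMM factors, library totals and DESeq2 size factors.

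Per length, the order of the members changed with treatment. At 0 μM the order by mean level was Fn1 at 885 FPKM, Sparc at 582 FPKM, Cyr61 at 358 FPKM, Postn at 229.8 FPKM and Thbs2 at 226 FPKM. Below these stood Wisp2 at 129.7 FPKM, Thbs1 at 125 FPKM, Ctgf at 24.2 FPKM, Tnc at 3.97 FPKM and Tnn at 0.727 FPKM. The ranges of Postn and Thbs2 overlapped there, as did those of Wisp2 and Thbs1. Without the library at 100 μM on day 10, Postn came first in treated cells at 6556 ± 2347 FPKM (SD, n = 5). Fn1 at 1574 ± 321 FPKM and Sparc at 1435 ± 572 FPKM came next in those 5 libraries. Over all 6 treated libraries Postn stood at 6915 ± 2277 FPKM, given as a description (SD, n = 6). Fn1 stood there at 1669 ± 369 FPKM and Sparc at 1440 ± 512 FPKM. The lowest Postn level in a treated library, 4755 FPKM, was above the highest Fn1 level, 2141 FPKM. Cyr61 followed at 203 ± 54.1 FPKM, Tnc at 107 ± 49.0 FPKM and Thbs2 at 91.3 ± 6.38 FPKM. Thbs1 at 66.8 ± 11.7 FPKM, Tnn at 65.5 ± 36.0 FPKM, Wisp2 at 36.4 ± 8.40 FPKM and Ctgf at 10.97 ± 4.30 FPKM came last. Neighbours in the treated order were separate for Postn and Fn1, Sparc and Cyr61, and Wisp2 and Ctgf, and the other neighbours overlapped. The FPKM ratio of Postn to Fn1 was 0.207 and 0.311 at 0 μM and 3.39 to 5.26 in treated libraries.

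**Figure D2:**
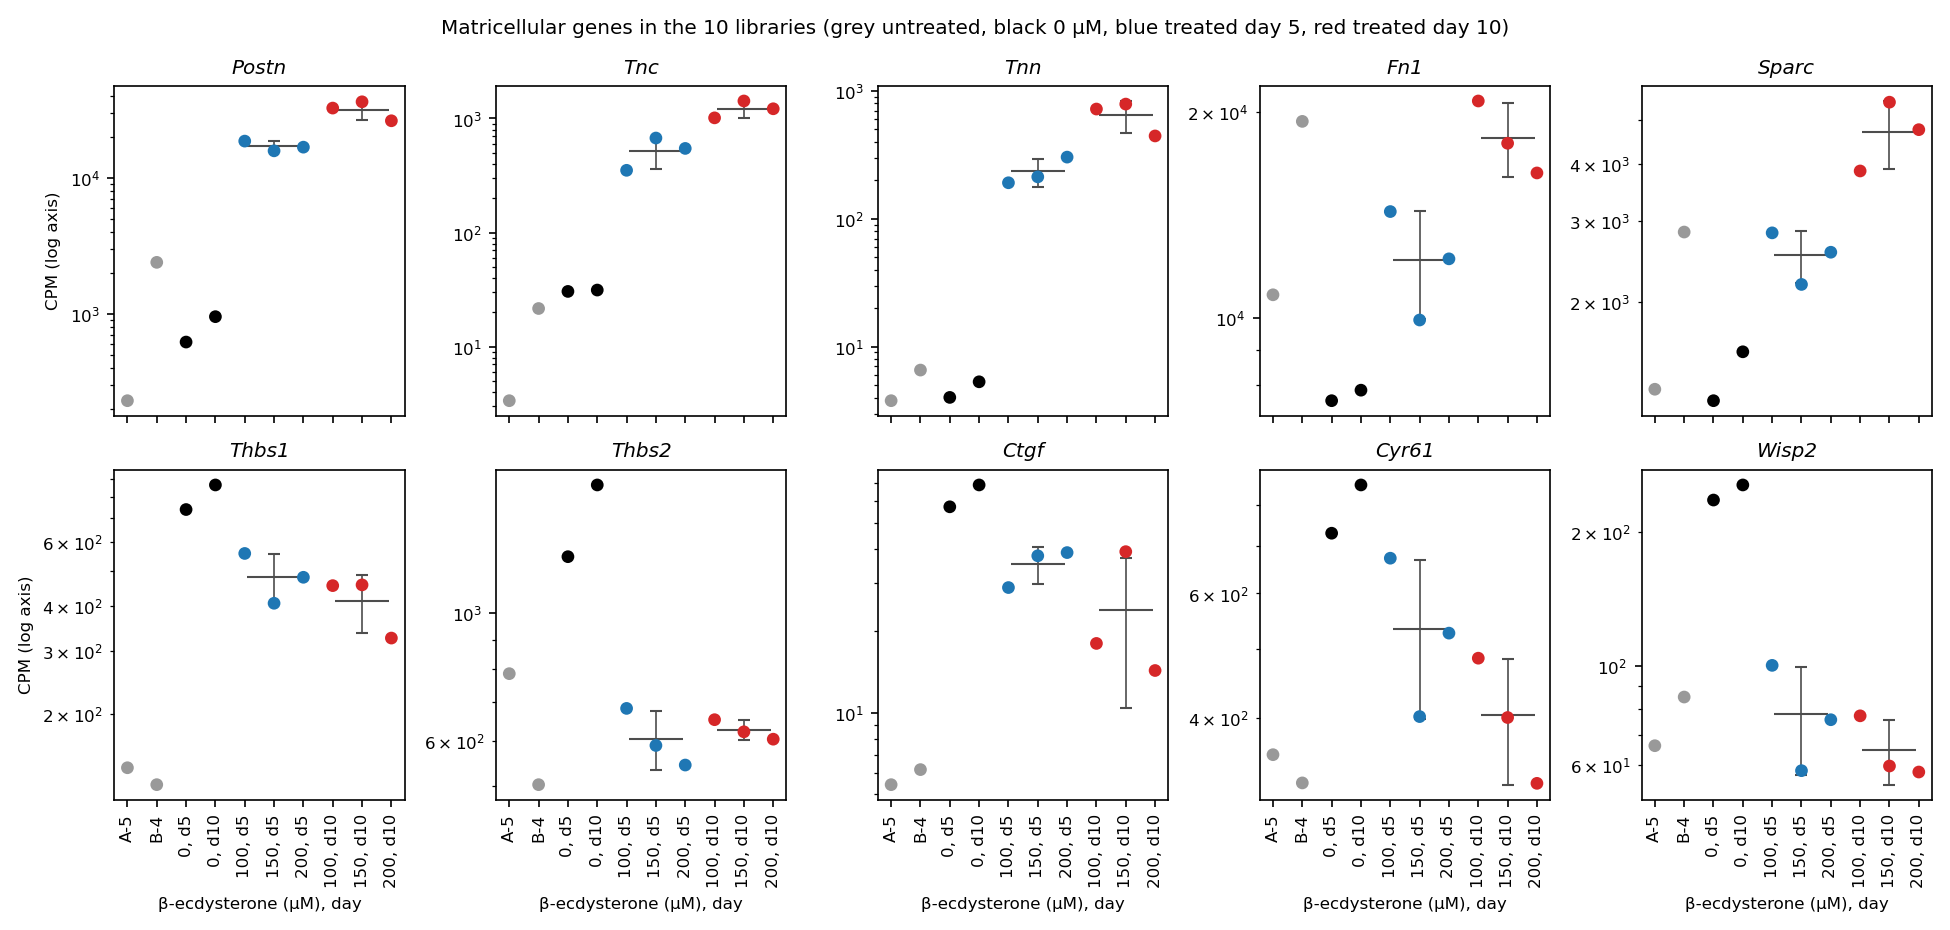
Level of each member in each library (CPM, log axis), grouped by dose and day, with the untreated libraries A-5 and B-4 apart. Postn, Tnc, Tnn, Fn1 and Sparc lie above 0 μM in all 6 treated libraries and the other 5 members lie below.

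Treated cells were also set against the lone 0 μM library of each day, which was assumed to vary like the other libraries. With 1 library, the spread within 0 μM on a day cannot be measured. The calls for each day therefore describe these libraries and do not test the treatment on that day. On day 5, 3 of the 9 members other than Postn were upregulated (Tnc, Tnn and Sparc), beside 1595 of 16794 genes (9.5%), and 2 were downregulated (Thbs2 and Wisp2), beside 768 genes (4.57%). On day 10, 4 members were upregulated, now with Fn1, beside 2025 genes (12.1%), and 5 were downregulated (Thbs1, Thbs2, Ctgf, Cyr61 and Wisp2), beside 1027 genes (6.12%). Postn, without the library at 100 μM on day 10, was higher by 4.76 on the log2 scale on day 5, where 9.92% of genes were called upregulated. On day 10 Postn was higher by 5.02 in that fit, where 11.8% of genes were called upregulated. Log2 fold changes of Tnn were 5.86 on day 5 and 6.93 on day 10, and those of Tnc were 4.09 and 5.28. Fn1 stood at 0.67 on day 5 and 1.22 on day 10. Ctgf stood at −0.71 on day 5 and −1.53 on day 10. Leaving out the 0 μM library of 1 day leaves the comparison on the other day alone. The values given above without 1 library at 0 μM are therefore nearly these same estimates, with spread from the treated libraries only.

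Whether the response itself differed between the days was tested as an interaction, with each 0 μM library assumed to vary like the treated libraries. By edgeR 0 of the 9 members were called, beside 2 of 16794 genes (0.0119%), with 1 member at an unadjusted p under 0.05 (Tnc), beside 1395 genes, and 0 called by DESeq2, beside 79 genes. The interaction was 1.18 for Tnc (SE 0.45, edgeR adjusted p = 0.535) and 1.07 for Tnn (SE 0.52, edgeR adjusted p = 0.632). For Postn it was 0.26 (SE 0.31, edgeR adjusted p = 0.854) in the fit without the library at 100 μM on day 10, where 9 of 17196 genes were called (0.0523%). The members, Postn among them, are therefore not shown to respond differently on the 2 days. With 1 library at 0 μM on each day, such a difference is not excluded either.

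Within the treated cells, day 10 was compared with day 5 to ask which members changed with time. The 2 tenascins rose, 2 of the 9 members other than Postn beside 145 of 16020 genes (0.905%), and 0 members fell, beside 23 genes (0.144%). For members in either direction, 4 had an unadjusted p under 0.05 in edgeR (Tnc, Tnn, Fn1 and Sparc), beside 2930 genes, and DESeq2 called 2, beside 277 genes. By level, 4 of the 9 members lay higher in every library of day 10 than in every treated library of day 5, as did 1910 genes (11.9%). Tnn rose from 235 ± 59.5 CPM on day 5 to 650.1 ± 182 CPM on day 10 (SD, n = 3 each), a log2 fold change of 1.47 (SE 0.23, edgeR adjusted p = 0.0160). Tnc rose from 524 ± 163 to 1218 ± 205 CPM, a log2 fold change of 1.22 (SE 0.22, edgeR adjusted p = 0.0251). The Tnn call held in 11 of its 12 alternatives and the Tnc call in 8. When 1 library was left out, the log2 fold change ran from 1.31 to 1.70 for Tnn and from 0.999 to 1.45 for Tnc. Without the library at 200 μM on day 5, neither was called, at 1.70 for Tnn (edgeR adjusted p = 0.0608, range over its 12 alternatives 1.1e-09 to 0.0608) and 1.25 for Tnc (edgeR adjusted p = 0.134, range over its 12 alternatives 3.5e-07 to 0.134). The Tnc call was also lost without the library at 100 μM on day 5 (0.999), at 150 μM on day 10 (1.10) or at 200 μM on day 10 (1.22).

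Sparc stood at 2528 ± 326 CPM on day 5 and 4697 ± 801 CPM on day 10 (SD, n = 3 each), a log2 difference of 0.90 (SE 0.16, edgeR adjusted p = 0.0224) inside the limit of 1. It was 1.02 and called without the library at 100 μM on day 10. Postn, without that library, had a log2 difference of 0.88 (SE 0.18, edgeR adjusted p = 0.0437), inside the limit of 1, and 1.08% of the 17273 genes in that fit were upregulated. The range for Postn over its 11 alternatives was 0.63 to 1.09. Its adjusted p ran from 2.7e-06 in DESeq2 to 0.305 in edgeR without the library at 200 μM on day 5. Fn1 had a log2 difference of 0.60 between the days (SE 0.17, edgeR adjusted p = 0.0983). Thbs1 at −0.22, Thbs2 at 0.06, Ctgf at −0.55, Cyr61 at −0.40 and Wisp2 at −0.26 were not called, and Ctgf was −1.12 and called without the library at 150 μM on day 10. The median log2 difference of all genes was −0.000767 with TMM factors and −0.128 with library totals. The mitochondrial share of counts was 4.52, 5.99 and 4.77% at 100, 150 and 200 μM on day 5 and 6.70, 10.6 and 7.47% on day 10, against 4.53% in both libraries at 0 μM, and its part in these differences was not tested.

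A trend with dose was fitted over 100, 150 and 200 μM with day as a covariate. By edgeR 0 of the 9 members were called for a trend, as were 0 of 14341 genes (0%). An unadjusted edgeR p under 0.05 was found for 1 member (Cyr61), beside 338 genes, and DESeq2 called 0 members, beside 2 genes. With 1 library for each dose and day, a trend is not excluded. A straight slope also cannot show a peak at 150 μM. For Postn the slope was −0.14 per 50 μM on the log2 scale (SE 0.17, edgeR unadjusted p = 0.414, adjusted p = 1) in the fit without the library at 100 μM on day 10, where 0 of 15026 genes were called (0%).

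Among the untreated libraries, A-5 and B-4 differed from each other and from 0 μM, and no test was made. Postn stood at 232 CPM in A-5 and 2403 CPM in B-4, below all treated libraries in both. Tnc stood at 3.35 CPM in A-5 and 21.6 CPM in B-4, and Tnn at 3.78 and 6.56 CPM. Against 0 μM, Tnc was thus lower in both untreated libraries, while Postn and Tnn were lower in A-5 and higher in B-4. Fn1 stood at 10824 CPM in A-5 and 19382 CPM in B-4 and Sparc at 1289 and 2843 CPM. Thbs1 stood at 142 CPM in A-5 and 127 CPM in B-4, and Ctgf at 5.42 and 6.16 CPM, below 0 μM and below the treated libraries. Thbs2 stood at 785 CPM in A-5 and 503 CPM in B-4, and Cyr61 at 354 and 323 CPM. Wisp2 stood at 66.3 CPM in A-5 and 85.2 CPM in B-4, within the range of the treated libraries. Against the untreated libraries, the log2 difference of treated cells was 1.73 for Thbs1, 2.34 for Ctgf and 0.46 for Cyr61, the opposite sign to that against 0 μM. When A-5 and B-4 replaced the libraries at 0 μM, Fn1 stood at 0.01, Sparc at 0.80, Thbs2 at −0.07 and Wisp2 at −0.09, none of them called. When A-5 and B-4 were added to those at 0 μM, Fn1 stood at 0.42, Thbs2 at −0.77 and Ctgf at −0.22, and with A-5 alone added Ctgf stood at −0.57, none of them called.

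Within the 6 treated libraries, the levels of several members moved side by side. The Pearson correlation of log2 CPM with Postn was 0.941 for Tnn, 0.926 for Sparc, 0.919 for Fn1 and 0.805 for Tnc (n = 6 libraries). Among the members that were lower, it was highest at 0.951 between Cyr61 and Wisp2 and 0.933 between Thbs1 and Cyr61 (n = 6 libraries). Other pairs of these did not move together. The correlation was −0.346 between Thbs2 and Ctgf and 0.0263 between Ctgf and Wisp2. It was 0.323 between Ctgf and Cyr61 and 0.359 between Thbs1 and Thbs2. The points share the 2 days and 3 doses, so these values describe the libraries and test nothing.

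In the mouse genome (GRCm38, GENCODE M21) the 10 members are protein-coding genes spread over several chromosomes. Postn (ENSMUSG00000027750) lies at chr3:54361109-54391037 on the plus strand, and Cyr61 (ENSMUSG00000028195) lies far along the same chromosome at chr3:145646976-145649981 on the minus strand. Tnn (ENSMUSG00000026725) lies at chr1:160085029-160153580 and Fn1 (ENSMUSG00000026193) at chr1:71585520-71653200, both on the minus strand. Thbs1 (ENSMUSG00000040152) lies at chr2:118111876-118127133 and Wisp2 (ENSMUSG00000027656) at chr2:163820861-163833146, both on the plus strand. Tnc (ENSMUSG00000028364) lies at chr4:63959785-64047015, Sparc (ENSMUSG00000018593) at chr11:55394500-55423183 and Thbs2 (ENSMUSG00000023885) at chr17:14665500-14694235, all on the minus strand. Ctgf (ENSMUSG00000019997) lies at chr10:24595442-24598683 on the plus strand. Of the 10 members, 5 (Tnc, Tnn, Fn1, Thbs1 and Thbs2) are listed in the KEGG pathway of ECM-receptor interaction.

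As some members were higher and others lower with treatment, promoters were read for short motifs of factors known to act on matrix genes. RefSeq promoters (GRCm38.p6) matched 6 of the 10 members, and the 250 bases before the start were searched on both strands for TATAAA (the TATA box), GGAATG (TEAD), TGANTCA (AP-1), TGTGGT (RUNX) and CAGACA (SMAD), with no overlapping matches. TATAAA was in 4 of the 6 promoters (Postn, Tnc, Thbs2 and Cyr61), against 12.37% of all 32851 promoters. GGAATG was in Tnn and Cyr61, against 12.64%, and CAGACA was in Sparc and Thbs2, against 17.13%. The RefSeq start of Sparc lies 3103 bases inside the GENCODE gene, so its window is not upstream of the GENCODE start. TGANTCA and TGTGGT were in 0 of the 6, against 6.75% and 14.05%. In Postn the match to TATAAA lay from −26 to −21 and in Cyr61 from −25 to −20, counted from the start, while in Tnc and Thbs2 it lay from −126 to −121. In Thbs2 this match was on the reverse strand, printed as TTTATA. The matches to CAGACA (printed TGTCTG) and the GGAATG match of Cyr61 (printed CATTCC) were also on the reverse strand. A match describes letters in the sequence only. The promoters of Postn (chr3:54360857-54361106, plus strand), Tnc (chr4:64047016-64047265, minus strand), Tnn (chr1:160153576-160153825, minus strand), Thbs2 (chr17:14694263-14694512, minus strand) and Cyr61 (chr3:145649986-145650235, minus strand) are printed 5′ to 3′ to show where matches lie in members that were higher and lower, with the matches in capitals.
Postn: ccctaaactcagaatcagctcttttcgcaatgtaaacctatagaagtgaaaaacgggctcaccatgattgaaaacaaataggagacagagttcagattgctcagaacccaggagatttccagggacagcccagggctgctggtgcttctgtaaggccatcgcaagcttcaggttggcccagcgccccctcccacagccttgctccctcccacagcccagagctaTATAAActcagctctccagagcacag
Tnc: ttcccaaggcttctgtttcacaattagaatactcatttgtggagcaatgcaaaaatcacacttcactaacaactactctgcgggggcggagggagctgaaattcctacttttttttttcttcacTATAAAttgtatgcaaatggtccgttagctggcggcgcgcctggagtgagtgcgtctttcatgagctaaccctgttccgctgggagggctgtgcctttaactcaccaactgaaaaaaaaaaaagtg
Tnn: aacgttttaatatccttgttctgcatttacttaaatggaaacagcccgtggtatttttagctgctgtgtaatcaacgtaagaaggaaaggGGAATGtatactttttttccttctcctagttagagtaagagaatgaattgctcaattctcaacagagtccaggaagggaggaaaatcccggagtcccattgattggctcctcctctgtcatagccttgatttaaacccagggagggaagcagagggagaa
Thbs2: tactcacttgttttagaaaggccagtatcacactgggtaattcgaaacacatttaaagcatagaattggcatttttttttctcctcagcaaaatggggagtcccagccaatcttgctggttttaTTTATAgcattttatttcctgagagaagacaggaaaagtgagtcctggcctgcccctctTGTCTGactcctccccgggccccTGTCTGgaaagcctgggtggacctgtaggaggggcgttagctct
Cyr61: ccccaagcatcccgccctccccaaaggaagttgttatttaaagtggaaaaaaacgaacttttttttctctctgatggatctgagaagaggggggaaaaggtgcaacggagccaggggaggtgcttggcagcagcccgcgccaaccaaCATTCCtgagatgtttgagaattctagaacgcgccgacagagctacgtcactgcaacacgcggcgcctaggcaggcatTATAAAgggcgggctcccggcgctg

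Other matricellular genes were counted in the same fit. Of 24 listed, 20 were tested, and 8 were upregulated and 2 downregulated in treated cells, beside 13.4% and 5.98% of all genes, with a median log2 fold change of 0.21 beside 0.05 for all genes. Spock2, a testican proteoglycan, stood at 285 and 250.6 CPM at 0 μM and at 1233 ± 243 CPM in treated cells (SD, n = 6), a log2 fold change of 2.16 (SE 0.19, edgeR adjusted p = 2.5e-05). Smoc1, a Sparc-related calcium-binding protein, stood at 1.30 and 2.09 CPM at 0 μM and at 7.78 ± 1.93 CPM in treated cells, a log2 fold change of 2.21 (SE 0.26, edgeR adjusted p = 0.000129). Spon2, an F-spondin relative, fell from 16.8 and 11.9 CPM to 2.66 ± 0.498 CPM, a log2 fold change of −2.44 (SE 0.20, edgeR adjusted p = 1.9e-05). The other gene that fell, Fbln2, was named after its values were seen and had a log2 fold change of −1.04. Osteopontin (Spp1), also among the osteoblast markers and the most abundant of the list by mean FPKM, stood at 1084 and 1095 FPKM at 0 μM and at 500.2 to 947 FPKM in treated libraries.

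Receptors for matricellular proteins were read next. Of 24 listed, 23 were tested, with 5 upregulated and 2 downregulated, beside 13.4% and 5.98% of all genes, and a median log2 fold change of −0.18 beside 0.05 for all genes, and library totals gave 4 downregulated. Itga8, an integrin α chain that pairs with Itgb1 and binds fibronectin and tenascin C, rose from 7.18 and 8.16 CPM at 0 μM to 81.7 ± 25.5 CPM in treated cells (SD, n = 6), a log2 fold change of 3.34 (SE 0.20, edgeR adjusted p = 3.5e-06). Itga9, the α chain of a tenascin-binding integrin, rose from 4.70 and 4.05 CPM to 25.4 ± 8.62 CPM, a log2 fold change of 2.42 (SE 0.24, edgeR adjusted p = 5.5e-05). Lrp5, a Wnt co-receptor that sets bone mass, rose from 221 and 215 CPM to 810.4 ± 139 CPM, a log2 fold change of 1.89 (SE 0.20, edgeR adjusted p = 7.0e-05). Itgb3 (−1.18) and Itga6 (−1.97) fell on the log2 scale and Cd36 and Sdc2 rose, 4 genes named after their values were seen. Cd36 was scarce, at no more than 26 counts in any library. Itgb1, the most abundant of the list by mean FPKM over the 10 libraries, stood at 223 and 234 FPKM at 0 μM and at 229 to 259 FPKM in treated libraries. At 0 μM Lrp1, named after its values were seen, was higher at a mean of 328 FPKM. Its treated level was 161 ± 37.1 FPKM (SD, n = 6).

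Genes of the TGF-β pathway, to which Thbs1 and Postn are linked, followed. Among 17 ligands, receptors and Smads, 2 were upregulated and 1 downregulated, beside 13.4% and 5.98% of all genes, with a median log2 fold change of 0.16 beside 0.05. Tgfb2, a TGF-β ligand, rose from 9.71 and 9.01 CPM at 0 μM to 23.1 ± 1.12 CPM in treated cells (SD, n = 6), a log2 fold change of 1.29 (SE 0.11, edgeR adjusted p = 1.9e-05). Acvrl1, named after its values were seen, was the other upregulated gene, a scarce transcript at no more than 31 counts in any library. Smad3, which carries the TGF-β signal to the nucleus, fell from 113 and 109 CPM to 52.1 ± 4.82 CPM, a log2 fold change of −1.10 (SE 0.09, edgeR adjusted p = 2.3e-05). Of 16 TGF-β target genes, 2 were downregulated, with a median of 0.06 beside 0.05. These were Bcl6 at −1.26 (SE 0.19, edgeR adjusted p = 0.000558) and Bhlhe40 at −1.24 (SE 0.11, edgeR adjusted p = 3.1e-05).

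The YAP/TAZ and TEAD genes, upstream of Ctgf and Cyr61, were read in the same way. The list of 16 held these factors and other genes of the Hippo pathway. Of the 16, 1 was upregulated, beside 13.4% of all genes, with a median log2 fold change of −0.07 beside 0.05. It was Sav1, a scaffold of the Hippo kinases, which rose from 54.3 and 55.8 CPM at 0 μM to 149 ± 35.5 CPM in treated cells (SD, n = 6), a log2 fold change of 1.42 (SE 0.23, edgeR adjusted p = 0.000957). Of 20 tested YAP/TAZ target genes, 2 were upregulated and 1 was downregulated, beside 13.4% and 5.98% of all genes, with a median of −0.23, and library totals gave 2 downregulated. Ankrd1, a stretch-responsive cofactor, fell from 37.8 and 44.3 CPM to 10.7 ± 3.25 CPM, a log2 fold change of −1.996 (SE 0.22, edgeR adjusted p = 1.0e-04). Nt5e, an ectonucleotidase, rose by 1.53 (SE 0.25, edgeR adjusted p = 0.000977) and Rbms3, an RNA-binding protein, by 1.14 (SE 0.14, edgeR adjusted p = 0.000157).

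Immediate early genes, a class that includes Cyr61 and Ctgf in growth-factor-stimulated cells, were mostly lower. Of 17 tested, 10 were downregulated and 1 upregulated in treated cells, beside 5.98% and 13.4% of all genes, with a median log2 fold change of −1.61 beside 0.05 for all genes, and the same counts came from library totals and DESeq2 size factors. Their summed level was 538 FPKM at 0 μM on day 5 and 537 FPKM on day 10, against 146 to 221 FPKM in treated libraries, 588 FPKM in A-5 and 146 FPKM in B-4. Fosl1, an AP-1 subunit, fell from 119 and 111 CPM at 0 μM to 9.30 ± 2.61 CPM in treated cells (SD, n = 6), a log2 fold change of −3.62 (SE 0.21, edgeR adjusted p = 2.9e-06). Egr1, a zinc-finger transcription factor, fell from 390.1 and 380.3 CPM to 32.9 ± 14.0 CPM, a log2 fold change of −3.57 (SE 0.28, edgeR adjusted p = 1.4e-05). Egr2, its relative, fell by 2.66 (SE 0.27, edgeR adjusted p = 6.2e-05). Atf3, named after its values were seen, was the gene that rose, by 1.76.

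Osteoblast markers were checked against the label of the cells. Their summed level, with Col1a2 the highest by mean FPKM over the 10 libraries, was 4389 and 5127 FPKM at 0 μM and 3435 to 6167 FPKM in treated libraries, so the groups overlapped. Of 13 tested, 6 were upregulated and 1 downregulated in treated cells, beside 13.4% and 5.98% of all genes, with a median log2 fold change of 1.27 beside 0.05. Sp7, the osteoblast transcription factor osterix, rose from 6.03 and 5.03 CPM at 0 μM to 81.5 ± 34.2 CPM in treated cells (SD, n = 6), a log2 fold change of 3.74 (SE 0.34, edgeR adjusted p = 3.1e-05). Ibsp, bone sialoprotein, stood at 0.668 and 0.854 CPM at 0 μM and at 74.0 to 810 CPM in treated libraries. Alpl, the phosphatase of mineralisation, had 0 and 2 counts at 0 μM and stood at 16.3 to 65.0 CPM in treated libraries. Runx2 (1.27) rose and Dmp1 (−2.10) fell on the log2 scale, both named after their values were seen. From day 5 to day 10, 3 of 12 tested osteoblast markers rose, beside 0.905% of all genes, Ibsp by 2.23, Alpl by 1.18 and the scarce transcript Mepe.

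Markers of other cell types were read in the same libraries, and the most abundant gene given for each list is that of the highest mean FPKM over the 10 libraries. Shares of all genes called in treated cells, 13.4% up and 5.98% down, are the background of each count. Of 10 tested fibroblast and tendon markers, 3 were upregulated and 1 downregulated in treated cells, with a median log2 fold change of 0.75 beside 0.05, and library totals and DESeq2 size factors each gave 4 upregulated. Dcn, a collagen-binding proteoglycan, rose from 26.4 and 16.1 CPM at 0 μM to 104 ± 40.6 CPM in treated cells (SD, n = 6), and Pdgfra, a growth-factor receptor of mesenchymal cells, from 413 and 412 CPM to 932 ± 195 CPM. The summed level of this list was 902 and 739 FPKM at 0 μM and 478 to 1179 FPKM in treated libraries, with S100a4 the most abundant by that mean. S100a4 was 1 of 9 tested that rose from day 5 to day 10, by 1.17, beside 0.905% of all genes. The tendon marker Tnmd had at most 2 counts in any library. Scx, another marker of the list, was lower with treatment, at 3.81 and 3.67 CPM at 0 μM and 1.59 ± 0.435 CPM in treated cells (SD, n = 6). Chondrocyte markers summed to 18.5 and 20.3 FPKM at 0 μM and 18.3 to 30.7 FPKM in treated libraries. Sox9 was the most abundant by that mean, with 1 of 6 upregulated (Hapln1) and Acan at no more than 8 counts.

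Adipocyte markers summed to 2.57 and 2.35 FPKM at 0 μM and 2.14 to 4.85 FPKM in treated libraries. Fabp4 was the most abundant by that mean, with 1 of 5 upregulated (Lep) and Adipoq at no more than 6 counts. Muscle markers summed to 0.778 and 0.626 FPKM at 0 μM and 1.65 to 2.77 FPKM in treated libraries. Des was the most abundant by that mean, with 2 of 4 upregulated (Des and Ckm) and Myod1 at no more than 2 counts. Endothelial markers summed to 0.280 and 0.257 FPKM at 0 μM and 0.785 to 1.19 FPKM in treated libraries. Vwf was the most abundant by that mean, with 3 of 4 upregulated (Vwf, Cdh5 and Tek) and Cldn5 at no more than 1 count. These 3 lists were thus at a few FPKM or less in every library. Macrophage markers summed to 18.1 and 26.7 FPKM at 0 μM and 24.2 to 44.8 FPKM in treated libraries. Lyz2 was the most abundant by that mean, with Itgam at no more than 6 counts. Of 4 tested, Lyz2 rose from 15.5 and 28.5 CPM to 46.6 ± 12.5 CPM and Cd14 fell from 10.5 and 10.1 CPM to 4.10 ± 0.952 CPM (SD, n = 6). The median log2 fold change of the macrophage list was −0.70, beside 0.05 for all genes. Medians were 0.97 for chondrocyte, 1.25 for adipocyte, 1.16 for muscle and 1.96 for endothelial markers. Genes named here beyond the most abundant of each list, Lyz2 and Cd14 were chosen after their values were seen, and the part of other cells in the members' levels was not tested.

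The genes whose levels ran most like those of 3 members were found by Pearson correlation of log2 CPM over the 10 libraries, among 10392 genes. For Postn these were Gm5662 (0.992), Arsg (0.988), Adam12 (0.987), Adamts1 (0.985) and Zfp185 (0.983). Adamts1, a secreted metalloproteinase, averaged 95.1 CPM at 0 μM and 1331 ± 213 CPM in treated cells (SD, n = 6), and Adam12, a metalloproteinase of the cell surface, 11.1 CPM and 76.5 ± 5.98 CPM. For Cyr61 they were Npr3 (0.974), Sntb1 (0.972), Anxa3 (0.966), Ajuba (0.963) and Zbtb45 (0.961). Npr3, the natriuretic peptide clearance receptor, averaged 172 CPM at 0 μM and 56.7 ± 29.5 CPM in treated cells, with 27.2 CPM in A-5 and 22.9 CPM in B-4. For Wisp2 they were Ctnnd1 (0.974), St5 (0.969), Zyx (0.965), Fbln2 (0.964) and Stk24 (0.964). Zyx, a focal adhesion protein, averaged 446 CPM at 0 μM and 198 ± 49.7 CPM in treated cells. The libraries share treatment and day, and over the 8 libraries at a stated dose the 15 names were replaced except Sntb1, with Tnn (0.995) among the 5 most like Postn.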

How the data were processed

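Gene counts and FPKM for 10 libraries were used as deposited by the authors. The submitters' processing notes name HISAT2 2.0.4 for alignment and GATK 3.2-2 for variants. The genome build is not given in the sources used here. The authors' edgeR comparison columns hold their findings and were not used. Counts were scaled by TMM, filtered with filterByExpr and tested with edgeR's quasi-likelihood test. Day was a covariate, and Benjamini-Hochberg correction ran over all genes. Interaction and dose trends were called at adjusted p < 0.05 alone. DESeq2, limma on log2 FPKM, other scalings, filters, controls and leaving out each library were alternatives. R 4.3.3, edgeR 4.0.16, limma 3.58.1, DESeq2 1.42.0, Python 3.11.15, pandas 2.3.3, numpy 2.4.6 and matplotlib 3.10.9 were used. Of 22036 Ensembl IDs, 22022 were found in GENCODE M21, and 7547 further genes were newly assembled loci.

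All 10 members were named. From each list, up to 3 called genes with the largest absolute log2 fold change and a mean of at least 5 CPM were named, with the most abundant gene of lists under 10 genes. The most abundant genes of longer lists (Spp1, Itgb1, Col1a2 and S100a4) were chosen after their values were seen. The 5 genes most like Postn, Cyr61 and Wisp2 needed a mean of at least 5 CPM. The members and lists were chosen with earlier results of these data known.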

Additional observations from a re-analysis of the deposited data

Results flagged for a closer look

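The untreated libraries A-5 and B-4, which stand in none of the main comparisons with 0 μM, held 5 member levels above both libraries at 0 μM. In B-4, Postn was at 2403 CPM, Tnn at 6.56 CPM and Sparc at 2843 CPM. Fn1 was at 10824 CPM in A-5 and at 19382 CPM in B-4. No test was made of these values.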

How the results depend on the processing

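Of 644 values under alternatives, 607 kept their side of the threshold or, for counts of members, stayed within 1.5 times the count reported. Some values that were not called changed sign among these. The number of downregulated members, 3 of 9 in treated against 0 μM, was 2 to 5 when 1 library was left out, 5 with no fold limit, 1 with a test against a 2-fold limit, 0 when A-5 and B-4 replaced 0 μM and 1 when they were added. Against A-5 and B-4 alone, the log2 difference was 1.73 for Thbs1 and 2.34 for Ctgf, and the cause was not tested. The log2 fold change of Postn ranged from 4.10 to 5.23 over 19 alternatives.

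From day 5 to day 10 the upregulated members, 2 of 9, numbered 0 to 3 and the downregulated, 0 of 9 by edgeR, numbered 0 to 1 when 1 library was left out. With dose as the replicate block, 2 were upregulated and 0 downregulated by edgeR and Postn was at 0.92. In a check of pairing by dose, same-dose libraries of the 2 days correlated at 0.224, 0.207 and −0.0759 for 100, 150 and 200 μM. Pairs of unlike dose ran from −0.244 to 0.0878. These values do not measure how alike the libraries were in overall expression.

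Differences between single doses were not tested.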
